A study of Homo sapiens with 6 samples.

Results

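The prostaglandin pathway was followed in BT-549 cells through 10 genes: the cyclooxygenases PTGS1 and PTGS2, the PGE2 synthases PTGES, PTGES2 and PTGES3, the prostacyclin synthase PTGIS, the thromboxane synthase TBXAS1, the PGE2-degrading dehydrogenase HPGD, and the PGE2 receptors PTGER2 and PTGER4. They were matched by symbol to the gene identifiers of the expression tables, and all 10 were found among 63140 genes. Of these 10, 8 had enough reads to be among the 14451 genes tested, while PTGS1 and HPGD did not.

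The 6 libraries came from BT-549, an established triple negative breast cancer line of wild-type genotype, with each culture grown for 24 h, 3 in adipocyte-conditioned medium (ACM) and 3 in unconditioned medium (UCM). ACM had been collected from OP9 mouse cells during differentiation to adipocytes in a medium with insulin, oleate and albumin. The labels give it at 50%, whereas the study's supplement describes it as undiluted for RNA-seq, and the formula of UCM is not given in the sources used here, so that base medium, serum and oleate cannot be told apart from adipocyte secretions. The cells were otherwise kept in RPMI-1640 with serum and insulin. The 3 replicates of a group were wells of the same line, so that p-values measure only the spread between wells, which may be technical.

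Total expected counts per library lay between 17135288 and 21053257. The mesenchymal genes VIM, FN1, SPARC and ZEB1, high in BT-549, summed to between 5477 and 6261 CPM (counts scaled to library size) in every library, while ESR1 and PGR, absent from triple negative lines, had 0 counts. Of the epithelial genes expected to be low, EPCAM had 2 counts in 1 library and 0 in the others, and CDH1 had 8 to 34 counts in every library (at most 1.83 CPM). Of 6 adipocyte markers 3 (ADIPOQ, LEP and CIDEC) were at 0 in every library, and the list summed to at most 0.143 CPM in ACM and 0.0948 CPM in UCM. Of 6 monocyte and macrophage markers 2 (AIF1 and LYZ) were at 0, and the list summed to between 0.489 and 0.901 CPM in ACM and between 0.805 and 1.13 CPM in UCM. ACM replicate 2 stood apart: it was the highest ACM library for 34.1% of all tested genes but for 72.8% of the 596 genes that met the study's threshold for activation (UpDEGs, here by edgeR, unadjusted p at or below 0.05 and log2 FC at or above 0.58). What sets this library apart was not tested. Without it, 197 genes rose and 87 fell at the adjusted threshold, against 484 and 320 with it. Such losses were not particular to it: 125 rose and 70 fell without UCM replicate 2, and 156 and 62 without UCM replicate 3. The numbers were 320 and 190 without ACM replicate 3, 415 and 206 without ACM replicate 1, and 738 and 572 without UCM replicate 1. Calls of named genes that were lost without ACM replicate 2 are given beside them. These are bulk libraries, in which fewer cells expressing a gene and less RNA per cell cannot be told apart.

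Prostaglandins are short-range lipid signals made from arachidonate, which phospholipases free from membranes. A cyclooxygenase turns arachidonate into the unstable endoperoxide PGH2, and terminal synthases turn PGH2 into PGE2, prostacyclin, thromboxane or other prostanoids. PTGS1 is commonly constitutive, whereas PTGS2 is an early response gene induced by cytokines and growth factors, and PGE2 acts in breast tumours through the receptors encoded by PTGER2 and PTGER4, which raise cAMP.

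To show what lies before the start sites of the 3 genes on which the comparison turns, the 250 bases upstream of each are printed 5′ to 3′ on the gene's own strand, from RefSeq for GRCh38.p14. They lie at chr1:186680424-186680673 (minus strand), chr9:129753043-129753292 (minus strand) and chr5:40679665-40679914 (plus strand). Capitals mark every match to 6 motifs described after the sequences.
PTGS2: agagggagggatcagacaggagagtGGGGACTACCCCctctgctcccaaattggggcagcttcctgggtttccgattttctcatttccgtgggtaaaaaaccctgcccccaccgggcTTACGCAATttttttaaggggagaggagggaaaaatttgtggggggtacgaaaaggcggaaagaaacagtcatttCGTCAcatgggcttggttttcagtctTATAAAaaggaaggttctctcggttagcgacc
PTGES: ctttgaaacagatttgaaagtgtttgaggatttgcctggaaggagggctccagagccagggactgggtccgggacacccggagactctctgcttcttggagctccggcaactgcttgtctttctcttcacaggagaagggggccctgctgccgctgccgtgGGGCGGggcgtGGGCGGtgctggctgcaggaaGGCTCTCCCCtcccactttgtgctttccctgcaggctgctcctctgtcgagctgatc
PTGER4: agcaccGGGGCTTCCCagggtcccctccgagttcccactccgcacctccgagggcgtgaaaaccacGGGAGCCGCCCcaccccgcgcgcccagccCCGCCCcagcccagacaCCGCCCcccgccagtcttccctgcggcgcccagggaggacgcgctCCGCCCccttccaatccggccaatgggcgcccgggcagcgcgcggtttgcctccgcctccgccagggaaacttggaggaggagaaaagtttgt

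The motifs were searched on both strands from 250 bases before to 50 bases after the start site, in 9 of the 10 genes (PTGIS was not matched) and in 35116 promoters of the same length. They were NF-kB (GGGNNNNNCC, in 58.7% of all promoters), Sp1 (GGGCGG, 45.0%), the cAMP response element core (CGTCA, 24.6%), the TATA box (TATAAA, 11.5%), C/EBP (TTNNGCAAT, 2.31%) and the PPAR element of direct repeats (AGGTCANAGGTCA, 0.0228%). The PTGS2 promoter held overlapping NF-kB matches that begin 225 to 223 bases upstream, the C/EBP match TTACGCAAT at 133 bases, a CGTCA at 58 bases and a TATA box at 32 bases upstream of the start site, with a further CGTCA 25 bases downstream. PTGES held Sp1 matches at 89 and 78 bases and an NF-kB match on the other strand at 57 bases upstream. PTGER4 held NF-kB matches at 244 bases and at 184 to 183 bases upstream, and 4 Sp1 matches on the other strand between 179 and 93 bases upstream, of which the first overlaps the NF-kB letters before it. Among the 9 genes only PTGS2 held the C/EBP letters, and none held the PPAR letters. A match describes letters, not binding.

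PTGES, the inducible microsomal PGE2 synthase, rose 2.83-fold in ACM, and PTGER4, which encodes the more abundant of the PGE2 receptors here, rose 1.48-fold. PTGS2 was far higher in ACM than in UCM in every replicate, 324 counts against 10, and varied widely among the ACM libraries. It did not pass the adjusted threshold as reported, but did in 7 of the 15 alternatives in which it was tested. PTGES2 and PTGES3, the abundant PGE2 synthases, had log2 FC of 0.11 and -0.22 and did not pass.

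By edgeR's quasi-likelihood test with the adjusted p limited to 0.05, 2 of the 8 tested members rose (PTGES and PTGER4), against 3.35% of all tested genes, and 0 fell, against 2.21%. With the unadjusted p so limited, 4 were higher, against 11.9% of all genes, and 1 was lower, against 11.5%. The study's thresholds made UpDEGs of 3 (PTGS2, PTGES and PTGER2), against 4.12% of tested genes, and DownDEGs of 0, against 1.71%. PTGER4, at a log2 FC of 0.57, lay just under that limit. PTGS2 entered the tested genes only through its ACM reads. PTGER2 also needed its ACM reads to enter, since UCM replicate 2 gave it only 8 counts. All 3 ACM libraries lay above all 3 UCM libraries for PTGS2, PTGES, PTGER2 and PTGER4, against 13.9% of all genes, and below them for PTGES3, against 15.1%. The median log2 FC of the 8 was 0.34, beside -0.01 over all tested genes. PTGS1 and HPGD enter none of these counts. PTGES and PTGER4 both lost their calls without ACM replicate 2 and without ACM replicate 3, where PTGS2 alone passed instead. Without UCM replicate 3 only PTGER4 passed, and without UCM replicate 2 none did. Calls over all genes fell in the same comparisons, from 484 that rose to 197 without ACM replicate 2 and 320 without ACM replicate 3. Without UCM replicate 3 and UCM replicate 2, 156 and 125 of all genes rose.

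**Figure D1:**
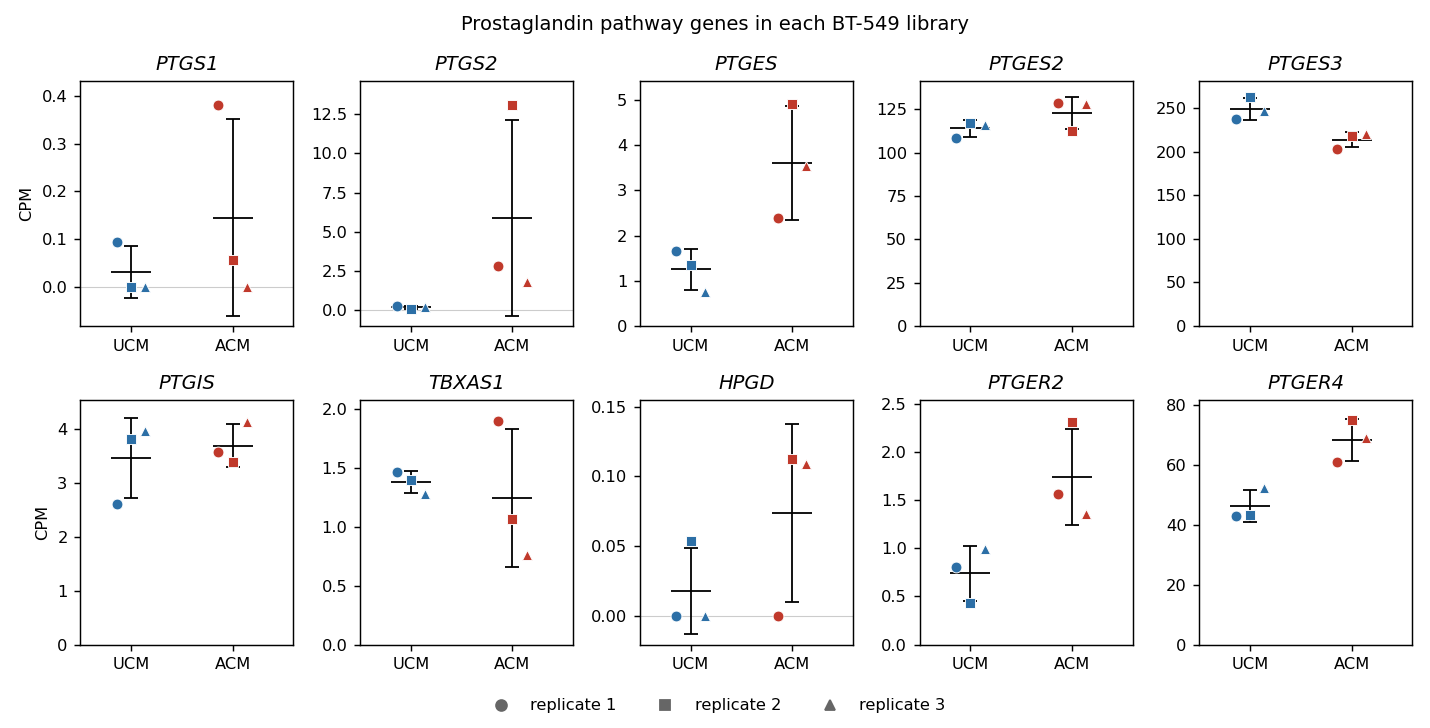
CPM of each of the 10 genes in the 3 UCM libraries (blue) and the 3 ACM libraries (red), on linear axes of their own scale; marker shapes give the replicate number, long bars the mean and capped bars the SD (n = 3). The groups do not overlap for PTGS2, PTGES, PTGES3, PTGER2 and PTGER4, and ACM replicate 2 lies at 13.1 CPM for PTGS2, far above the other libraries.

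PTGS2 encodes the inducible cyclooxygenase, the enzyme that commits arachidonate to prostanoids. Its gene (ENSG00000073756) lies at chr1:186671791-186680922 on the minus strand (GENCODE 44 on GRCh38, as for all genes here). ACM replicates 1, 2 and 3 gave it 59, 232 and 33 counts, against 6, 1 and 3 counts in UCM. As CPM these were 2.80, 13.1 and 1.79 in ACM against 0.284, 0.0538 and 0.175 in UCM. Every ACM library was thus above every UCM library, and ACM replicate 2 held 71.6% of the ACM counts. The ACM mean was 5.89 ± 6.24 CPM and the UCM mean 0.171 ± 0.115 CPM (SD, n = 3 each). A level of 0.171 CPM is close to what 3 counts amount to in these libraries (0.143 to 0.175 CPM), so that the fold rests on few UCM reads.

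The log2 FC of PTGS2 was 5.01 (SE 1.10), a 32.3-fold difference, and edgeR's adjusted p was 0.0570. The ratio of the summed counts per library size was 32.0, with a 95% interval of 17.2 to 67.3 that covers counting error only. Without ACM replicate 2, the ratio was 13.2 (interval 6.88 to 28.5, 92 counts against 10), and the log2 FC was 3.67 with an adjusted p of 0.0173, and without ACM replicate 3 it was 5.44 with an adjusted p of 0.0295. The call depended on the model: DESeq2 gave a log2 FC of 5.10 with an adjusted p of 0.00017, whereas limma-trend on log2(TPM + 1), which understates low genes, gave 1.27 with an adjusted p of 0.116. Over the 15 alternatives in which it was tested, PTGS2 was higher in ACM in each, and 7 of them brought the adjusted p to 0.05 or below.

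PTGS1 encodes the constitutive cyclooxygenase (ENSG00000095303, chr9:122370530-122395703, plus strand). It drew 8, 1 and 0 counts in ACM, against 2, 0 and 0 in UCM. The groups overlapped at 0, and most reads came from replicate 1. The ratio of 9 counts to 2 was 4.44 with a 95% counting interval of 0.919 to 42.2, and no difference was detectable at this depth.

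The cyclooxygenase message of these cells was therefore mostly PTGS2, as far as the few reads tell. In ACM replicates 1, 2 and 3, PTGS2 made up 81.9, 98.9 and 100% of the TPM (a level per transcript length, scaled to the sum of the library) of both cyclooxygenases, and in the UCM replicates 71.4, 100 and 100%. The UCM shares rest on 8, 1 and 3 counts, whereas those of ACM rest on 67, 233 and 33. The mean shares of 93.6 ± 10.1% and 90.5 ± 16.5% (SD, n = 3 each) were not told apart by an exact two-sided permutation test (p = 1, the smallest that 3 against 3 allows being 0.1). The sign of the difference turned when ACM replicate 3 or UCM replicate 1 was left out.

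PTGES encodes the inducible microsomal enzyme that converts PGH2 to PGE2 and often acts with PTGS2 (ENSG00000148344, chr9:129738331-129753042, minus strand). It had 50, 87 and 65 counts in ACM and 35, 25 and 13 counts in UCM. In CPM this was 2.38, 4.90 and 3.53 in ACM against 1.66, 1.34 and 0.758 in UCM. The lowest ACM library stood above the highest UCM library. The log2 FC was 1.50 (SE 0.36), with means of 3.60 ± 1.26 and 1.25 ± 0.457 CPM (SD, n = 3 each) and an adjusted p of 0.0405 by edgeR. Without ACM replicate 2 the log2 FC was 1.22 and the adjusted p 0.176, and with effective lengths as offsets the adjusted p was 0.0802. The call was also lost without ACM replicate 3 (adjusted p = 0.0946), UCM replicate 2 (0.138) or UCM replicate 3 (0.136).

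PTGES2, a second membrane-associated PGE2 synthase (ENSG00000148334, chr9:128120693-128128462, minus strand), was measured far more deeply. Its 2701, 1994 and 2355 counts in ACM overlapped the 2292, 2181 and 1986 counts in UCM. The means were 122.9 ± 9.16 and 113.9 ± 4.64 CPM (SD, n = 3 each), with a log2 FC of 0.11 (SE 0.07) and an adjusted p of 0.417 by edgeR. PTGES3 encodes the cytosolic PGE2 synthase, better known as the p23 co-chaperone of HSP90 (ENSG00000110958, chr12:56663341-56688408, minus strand). It had 4288, 3876 and 4051 counts in ACM and 5016, 4881 and 4231 counts in UCM. After scaling for library size, at 204, 218 and 220 CPM in ACM against 238, 262 and 247 CPM in UCM, all 3 ACM libraries lay below all 3 UCM libraries. The log2 FC was -0.22 (SE 0.07) with an adjusted p of 0.0883 by edgeR. Its processed pseudogene PTGES3P1 took 3 counts in ACM and 10 in UCM, and the other 4 listed took 0.

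Because PTGES2 and PTGES3 are so much more abundant, PTGES remained a small part of the PGE2 synthase message. It made up 0.710, 1.48 and 0.995% of the summed TPM of the 3 synthases in ACM and 0.480, 0.355 and 0.212% in UCM, with no overlap between the groups.

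Neither enzyme for other prostanoids passed the test. PTGIS, prostacyclin synthase (ENSG00000124212, chr20:49503874-49568137, minus strand), had 75, 60 and 76 counts in ACM against 55, 71 and 68 in UCM. The groups overlapped, at 3.69 ± 0.391 and 3.46 ± 0.746 CPM (SD, n = 3 each), with a log2 FC of 0.10 (SE 0.23) and an adjusted p of 0.849 by edgeR. TBXAS1, thromboxane synthase (ENSG00000059377, chr7:139777051-140020325, plus strand), had 40, 19 and 14 counts in ACM against 31, 26 and 22 in UCM. The groups overlapped here too, at 1.24 ± 0.590 and 1.38 ± 0.0939 CPM, with a log2 FC of -0.14 (SE 0.39) and an adjusted p of 0.870 by edgeR. The ACM libraries of TBXAS1 spread from below to above the UCM range, and its sign turned without ACM replicate 3, as that of PTGIS did without UCM replicate 1.

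HPGD encodes the dehydrogenase that inactivates PGE2 (ENSG00000164120, chr4:174490175-174523154, minus strand), and its message was at the detection limit. The ACM libraries had 0, 2 and 2 counts and those of UCM 0, 1 and 0, which overlap at 0. The ratio of 4 counts to 1 had a 95% counting interval of 0.391 to 194, so that no difference could be detected at this depth. Its mean CPM was below that of 3 counts in both groups.

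PTGER4 encodes a PGE2 receptor that signals through cAMP (ENSG00000171522, chr5:40679915-40693735, plus strand). It had 1287, 1336 and 1272 counts in ACM and 907, 805 and 900 counts in UCM. The lowest ACM value, 61.2 CPM, was above the highest UCM value, 52.5 CPM. The means were 68.5 ± 7.06 and 46.2 ± 5.40 CPM (SD, n = 3 each), with a log2 FC of 0.57 (SE 0.10) and an adjusted p of 0.0146 by edgeR. Without ACM replicate 2 the log2 FC was 0.49 and the adjusted p 0.0675, and the adjusted p was 0.051 without ACM replicate 3 and 0.0769 without UCM replicate 2.

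The effective length of PTGER4, a mean over its 5 annotated transcripts weighted by their estimated abundance, differed 1.37-fold between libraries, from 1787 to 2448 bases. In TPM the groups were correspondingly closer, at 35.36, 58.28 and 45.76 in ACM against 32.18, 28.89 and 38.18 in UCM, and overlapped. With these lengths as offsets the log2 FC was 0.52 and the adjusted p 0.182. TTC33, on the opposite strand, spans all 13821 bases of PTGER4, and whether reads were counted by strand is not given in the sources used here. TTC33 itself had a log2 FC of 0.27 (SE 0.10, adjusted p = 0.127 by edgeR), and its part in the PTGER4 counts was not tested.

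PTGER2, the other cAMP-raising PGE2 receptor (ENSG00000125384, chr14:52314305-52328598, plus strand), was scarce. It had 33, 41 and 25 counts in ACM against 17, 8 and 17 in UCM, that is 1.57, 2.31 and 1.36 CPM against 0.805, 0.430 and 0.991 CPM. The groups did not overlap. The log2 FC was 1.23 (SE 0.40) with an adjusted p of 0.104 by edgeR, and no alternative brought it to the threshold. The difference of PTGER2 was thus larger as a fold than that of PTGER4 and less certain. By level the receptor message was almost all PTGER4, at 95.5 to 96.6% of the TPM of the 4 PGE2 receptor genes in ACM and 96.8 to 98.2% in UCM.

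Compared per length, the order of levels in UCM was led by PTGES3 and PTGES2. PTGES3 had 227 ± 9.33 TPM, PTGES2 123 ± 1.47 TPM, PTGER4 33.1 ± 4.71 TPM and TBXAS1 4.37 ± 0.410 TPM (SD, n = 3 each), with no overlap between neighbours. PTGES at 1.22 ± 0.454 TPM overlapped PTGIS at 1.01 ± 0.170 TPM, and PTGIS overlapped PTGER2 at 0.570 ± 0.306 TPM. PTGS2 followed at 0.0767 ± 0.0666 TPM, below every PTGER2 value, and its values overlapped those of HPGD and PTGS1. In ACM the first 3 places were the same. Next came TBXAS1 at 3.64 ± 2.36, PTGES at 3.45 ± 1.16, PTGS2 at 1.99 ± 2.03, PTGIS at 1.36 ± 0.261 and PTGER2 at 1.13 ± 0.300 TPM, each overlapping its neighbour. PTGS2 thus stood with the barely detected genes in UCM and with the other scarce members in ACM. The effective lengths of TBXAS1 (408 to 778 bases) and PTGIS (3042 to 5290 bases) varied most among the tested members, which limits the TPM of both.

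**Figure D2:**
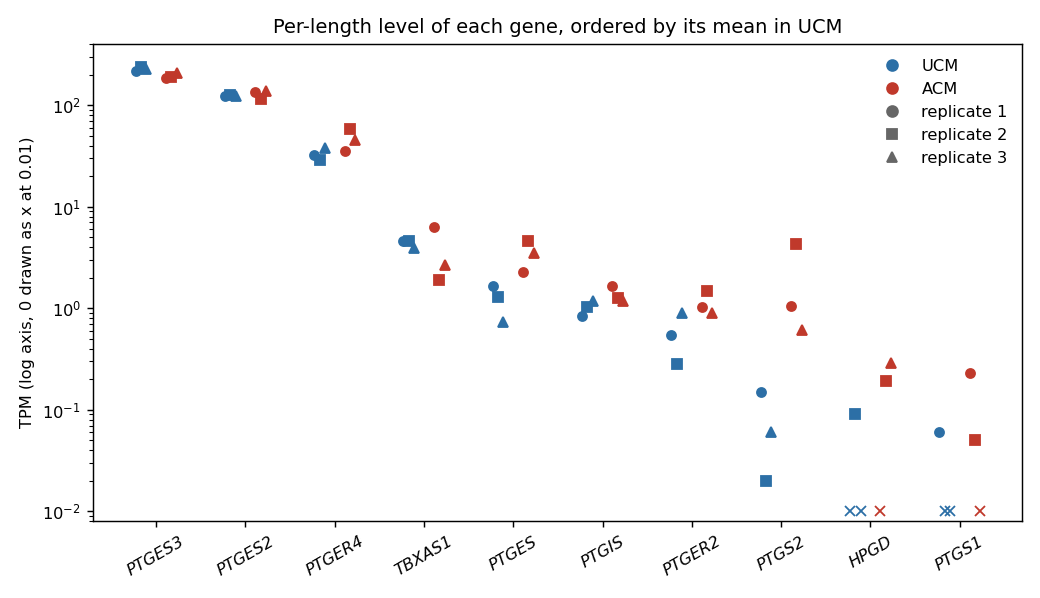
TPM of each gene in each library on a log axis, UCM in blue and ACM in red, ordered by the UCM mean; marker shapes give the replicate number and crosses at the bottom stand for 0. PTGES3, PTGES2 and PTGER4 lead in both groups, and PTGS2 is the gene whose points shift most, from at most 0.15 TPM in UCM to between 0.61 and 4.32 TPM in ACM.

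To see whether the rest of the pathway followed, 80 further genes in 8 lists were examined, of which 77 were found in the files and 50 were tested. At an adjusted p at or below 0.05 by edgeR, 8 rose and 1 fell, beside 3.35% and 2.21% of all tested genes. At an unadjusted p at or below 0.05, 19 were higher and 4 lower, beside 11.9% and 11.5%. UpDEGs numbered 10 and DownDEGs 0, beside 4.12% and 1.71%, and the median log2 FC was 0.20, beside -0.01 over all tested genes. Of these UpDEGs, IL1B, AKR1C3 and PTGES3L entered the tested genes only through their ACM reads. Without ACM replicate 2, 4 rose (AKR1B1, CEBPB, CEBPD and IL6). The number that rose was 3 without UCM replicate 3 and 0 without UCM replicate 2, and the number that fell was 0 in each of these 3 comparisons. Over all genes, 197, 156 and 125 rose in these 3 comparisons and 87, 62 and 70 fell, against 484 and 320 with every library.

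Upstream of the cyclooxygenases, none of the 5 tested genes for arachidonate release (of 8) passed the adjusted threshold. Their median log2 FC was 0.32, and MGLL, which frees fatty acids from monoglycerides, had the lowest p, with a log2 FC of 0.32 (SE 0.12, adjusted p = 0.149). The secreted phospholipases PLA2G2A, PLA2G5 and PLA2G10 had 0 counts in every library. PLA2G4A, the cytosolic phospholipase that supplies arachidonate, had 3.52, 8.05 and 2.72 CPM in ACM against 3.08, 3.06 and 3.56 CPM in UCM, so that only ACM replicate 2 stood above the UCM range.

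Of 6 tested synthases outside the 10 genes (of 8), 1 rose and 0 fell, beside 3.35% and 2.21% of all tested genes. Their median log2 FC was 0.57. The gene that rose was AKR1B1, aldose reductase, which can also reduce PGH2 to PGF2α. It had 319, 555 and 355 CPM in ACM against 202, 195 and 194 CPM in UCM, with no overlap. Its log2 FC was 1.06 (SE 0.21, adjusted p = 0.0401 by edgeR), and 0.77 without ACM replicate 2 (adjusted p = 0.00207). The call was lost without any 1 of the UCM libraries (adjusted p between 0.109 and 0.169). AKR1C3, the other aldo-keto reductase with PGF synthase activity, had a log2 FC of 2.06 (SE 0.71) and an adjusted p of 0.124, led by ACM replicate 2 at 2.65 CPM against 0.618 and 0.598 CPM in the other ACM libraries. Of the PGD2 synthase genes, PTGDS had 13 counts in ACM against 9 in UCM, while HPGDS had 0.

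None of the 4 genes found for prostaglandin transport and inactivation passed the adjusted threshold, and their median log2 FC was 0.18. SLCO2A1, the prostaglandin uptake carrier, had 2.38, 4.39 and 4.73 CPM in ACM against 2.13, 1.67 and 0.758 CPM in UCM, which did not overlap. Its log2 FC was 1.31 (SE 0.39) with an adjusted p of 0.0809 by edgeR. ABCC4, a prostaglandin exporter, had a log2 FC of -0.13 (SE 0.07, adjusted p = 0.321).

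Of 8 other prostanoid receptor genes 3 were tested and none passed, with a median log2 FC of -0.02. PTGFR, the PGF2α receptor, had the lowest p among them, with a log2 FC of 0.27 (SE 0.25, adjusted p = 0.571). PTGER1, a further PGE2 receptor, was too low for the test. It had 11, 12 and 9 counts in ACM against 1, 5 and 5 in UCM, a ratio of 2.87 with a 95% counting interval of 1.41 to 6.31. PTGER3 had 2 counts in ACM and 1 in UCM.

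The other eicosanoid branches were largely silent: of 14 genes only 4 were tested, none passed, and their median log2 FC was 0.25. ALOX5, which starts leukotriene synthesis, had 0 counts in every library. LTB4R2, a leukotriene B4 receptor, had the lowest p, with a log2 FC of 0.48 (SE 0.24, adjusted p = 0.271).

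Of 10 tested genes (of 15 named) known to induce PTGS2 or to bind its promoter, 4 rose and 0 fell, beside 3.35% and 2.21% of all tested genes, with a median log2 FC of 0.16. CEBPD and CEBPB encode C/EBP factors. The PTGS2 promoter holds the C/EBP motif letters, as it also holds those of NF-kB, and whether any factor bound there was not tested. CEBPD had 120, 167 and 136 CPM in ACM against 46.8, 64.6 and 68.2 CPM in UCM, a log2 FC of 1.23 (SE 0.17, adjusted p = 0.0121 by edgeR). CEBPB had 271, 360 and 256 CPM against 162, 181 and 183 CPM, a log2 FC of 0.75 (SE 0.13, adjusted p = 0.0151). The groups of both were apart, and both calls held without ACM replicate 2 but not without UCM replicate 2 (adjusted p = 0.0509 and 0.0653). JUN, a subunit of AP-1, rose by a log2 FC of 0.39 (SE 0.07, adjusted p = 0.0155), which was lost without ACM replicate 2 (0.0536), UCM replicate 2 (0.0972) or UCM replicate 3 (0.0562). IL1B, the cytokine that is a classical inducer of PTGS2, had 14, 26 and 12 counts in ACM against 2, 0 and 0 in UCM. Its log2 FC was 4.48 (SE 0.86, adjusted p = 0.0170 by edgeR), and the ratio of summed counts was 25.7 with a 95% counting interval of 6.76 to 218 (52 counts against 2). Its adjusted p was 0.0806 without ACM replicate 2, 0.0812 without UCM replicate 2 and 0.0721 without UCM replicate 3. IL1B, counted among the genes that rose, entered the tested genes only through its ACM reads, and DESeq2 gave it no adjusted p.

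Other regulators in that list did not pass. The NF-kB subunit RELA had 143, 149 and 145 CPM in ACM against 129, 128 and 128 CPM in UCM, a log2 FC of 0.18 (SE 0.06, adjusted p = 0.106), and NFKB1 had a log2 FC of 0.13 (SE 0.10, adjusted p = 0.455). FOS and EGR1 split by replicate number in both groups, being lowest in replicate 1: EGR1 had 28.0, 84.4 and 99.9 CPM in ACM and 28.3, 106 and 115 CPM in UCM. Without replicate 1 of both groups, a comparison chosen after seeing the data, PTGS2 had a log2 FC of 5.97 with an adjusted p of 0.175. PACERR, the antisense transcript that overlaps PTGS2 by 322 bases, had 0 counts in every library.

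Of 7 tested genes for proteins that bind the PTGS2 message (of 9 named), 1 rose and 0 fell, beside 3.35% and 2.21% of all tested genes. Their median log2 FC was -0.10. The gene that rose was ZFP36L1, which promotes decay of messages with AU-rich elements, at 278, 310 and 276 CPM in ACM against 243, 223 and 232 CPM in UCM. Its log2 FC was 0.31 (SE 0.07, adjusted p = 0.0352 by edgeR), and the call was lost without ACM replicate 2 (0.125), ACM replicate 3 (0.0648), UCM replicate 2 (0.179) or UCM replicate 3 (0.129). ELAVL1, which stabilises such messages, had a log2 FC of -0.04 (SE 0.07, adjusted p = 0.793).

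Downstream, of 11 tested genes that respond to PGE2 or cAMP (of 13), 2 rose and 1 fell, beside 3.35% and 2.21% of all tested genes, with a median log2 FC of 0.45. IL6, a cytokine induced by PGE2 among many stimuli, had 37.9, 85.9 and 33.0 CPM in ACM against 9.81, 6.18 and 7.11 CPM in UCM, a log2 FC of 2.75 (SE 0.46, adjusted p = 0.0335 by edgeR). Without ACM replicate 2 it was 2.20 (adjusted p = 0.00148), and without any 1 of the UCM libraries the call was lost (adjusted p between 0.0945 and 0.179). DUSP1, a MAP kinase phosphatase, rose by a log2 FC of 0.53 (SE 0.11, adjusted p = 0.0258), which was lost without ACM replicate 2 (0.0825) or UCM replicate 2 (0.117). SIK1, a kinase induced by cAMP, was lower in all ACM libraries, at 35.8, 32.1 and 36.9 CPM against 45.2, 47.0 and 53.3 CPM, a log2 FC of -0.47 (SE 0.09, adjusted p = 0.0192). Its call was lost without ACM replicate 2 (adjusted p = 0.0806), UCM replicate 2 (0.0695) or UCM replicate 3 (0.110). SIK1 was the only 1 of the 11 with a negative log2 FC, while 10 were positive, beside 6954 of all 14451 tested genes. All 3 ACM libraries lay above all 3 UCM libraries for 9 of them, against 13.9% of all tested genes. Among these were PDE4D, with a log2 FC of 0.45 (SE 0.12, adjusted p = 0.0546 by edgeR), and VEGFA, with 0.80 (SE 0.19, adjusted p = 0.0604). NR4A2, an early response gene, had a log2 FC of 1.25 (SE 0.40, adjusted p = 0.0976), while AREG and EREG, which encode EGF receptor ligands, had 0 counts.

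**Figure D3:**
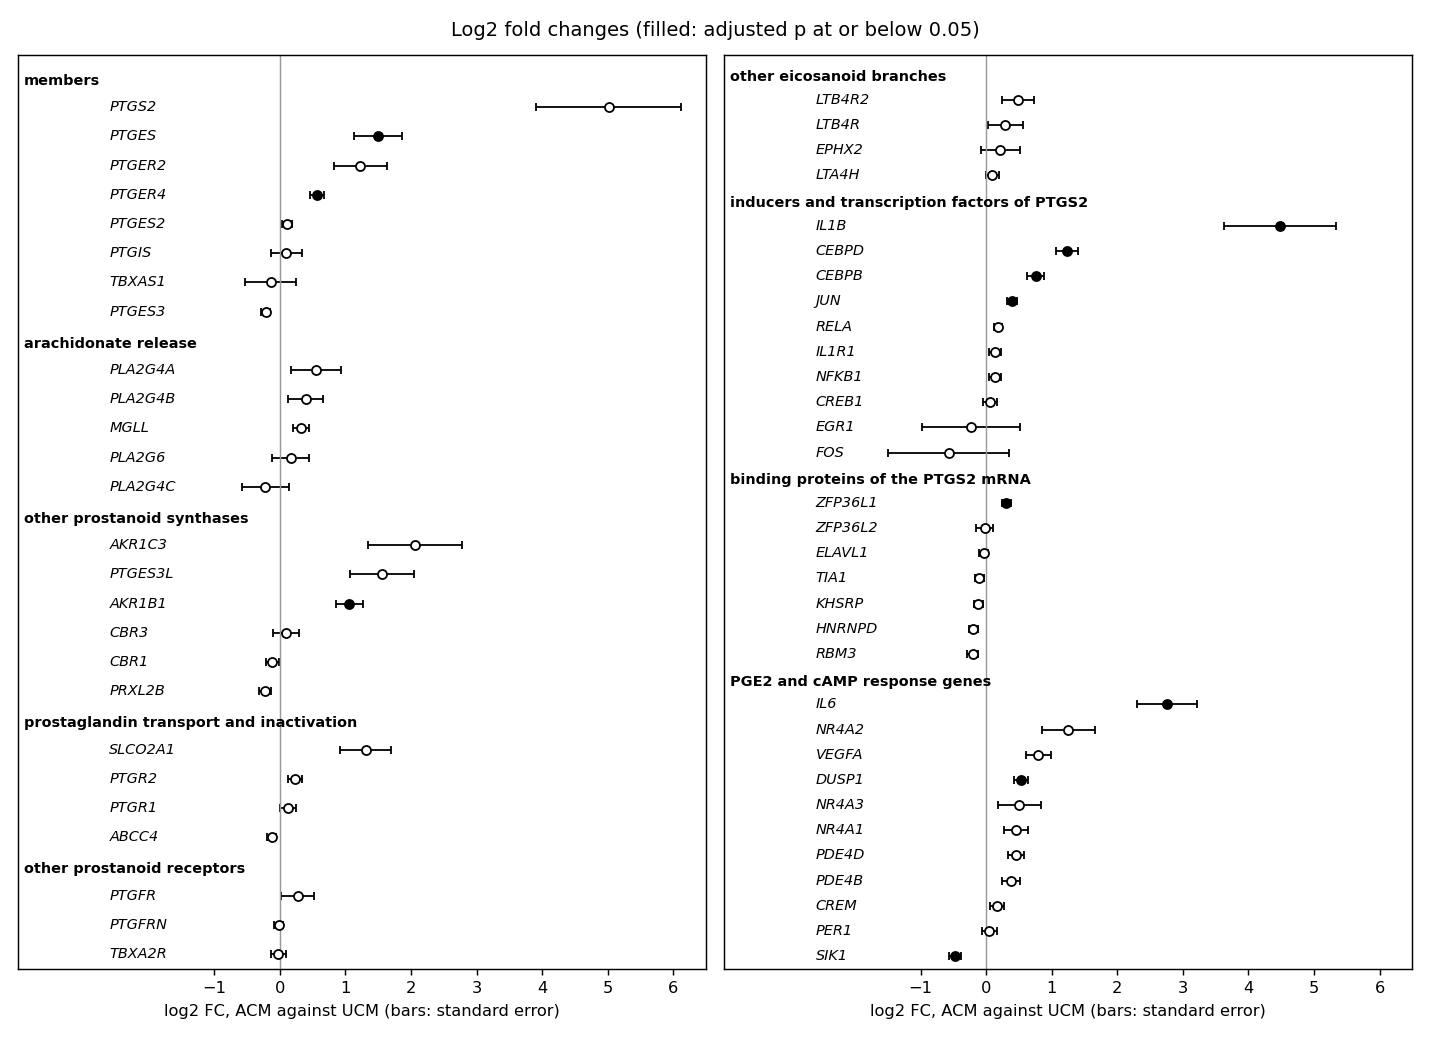
Log2 FC of ACM against UCM for the 8 tested members and the 50 tested genes of the 8 lists, with bars for the standard error and filled points for an adjusted p at or below 0.05 by edgeR. PTGS2 and IL1B lie farthest to the right, PTGS2 with the widest bar, and SIK1, at -0.47, is the filled point left of 0.

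The genes whose profiles lay closest to PTGS2 over the 6 libraries were sought among 13351 tested genes with a mean of at least 1 CPM in ACM. Likeness was the root mean square difference of log2 CPM after each gene was centred on its own mean, for which the median over those genes was 2.22. In order, the 8 closest were C3 (0.399), TNFAIP2 (0.673), ABCA1 (0.705), CFB (0.748), CXCL8 (0.771), GDF15 (0.788), ANGPTL4 (0.797) and IL6 (0.833). C3 and CFB encode complement components, CXCL8 and IL6 secreted inflammatory factors, and ABCA1 and ANGPTL4 a cholesterol exporter and an inhibitor of lipoprotein lipase. They were picked for a pattern that includes the difference between the groups and the height of ACM replicate 2, and their values are a description.

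C3, the closest, had 12.8, 55.2 and 15.4 CPM in ACM against 2.18, 1.29 and 1.57 CPM in UCM, so that ACM replicate 2 exceeded the other ACM libraries as it did for PTGS2. CXCL8 had 119, 355 and 121 CPM in ACM against 43.5, 19.6 and 14.9 CPM in UCM, and GDF15 145, 485 and 161 CPM against 50.3, 29.2 and 28.2 CPM. ABCA1 and ANGPTL4 were less uneven within ACM, at 26.8, 42.4 and 25.8 CPM and at 223, 352 and 196 CPM. In all 8, as in PTGS2, ACM replicate 2 was the highest library. Among the tested pathway genes it was the highest ACM library for 27 of 50 (54.0%), and among the 8 tested members for 4 (PTGS2, PTGES, PTGER2 and PTGER4), beside 34.1% of all tested genes.

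**Figure D4:**
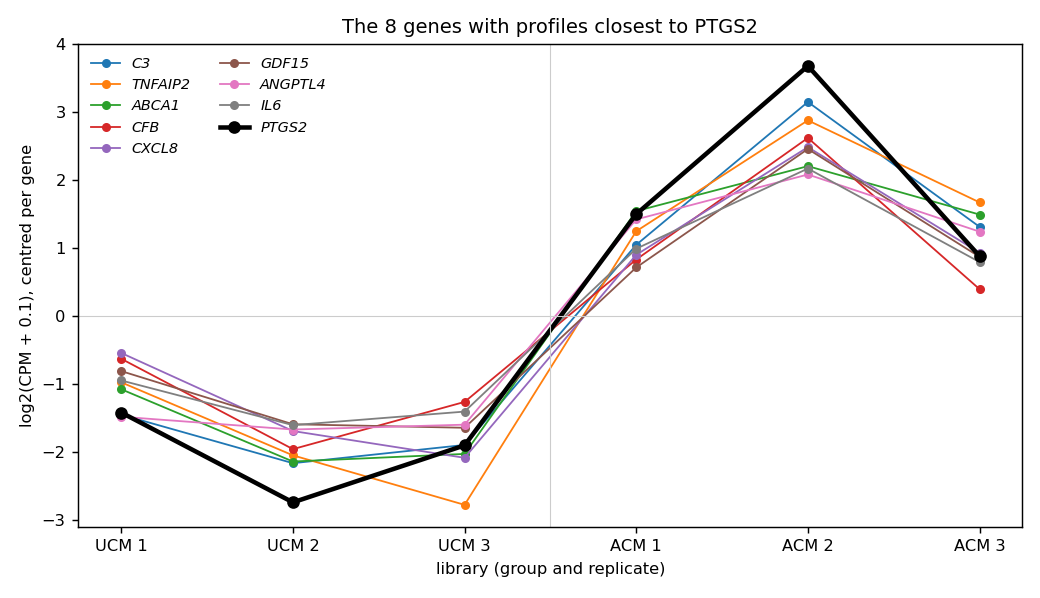
Profiles of PTGS2 (black) and its 8 closest genes over the 6 libraries, as log2(CPM + 0.1) centred on each gene's mean; lines only join the points of a gene, since replicates have no order. All 9 genes are below their mean in the UCM libraries, above it in the ACM libraries and highest in ACM replicate 2.

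The 3 genes with the strongest statistics differed in how far they depended on the model and on single libraries. Leaving out UCM replicate 2, for example, gave PTGS2 an adjusted p of 0.225, PTGES 0.138 and PTGER4 0.0769, although the log2 FC of each stayed at 4.61, 1.54 and 0.52. PTGER4 kept its call in 10 of 16 alternatives and PTGES in 9 of 16 (DESeq2 among both), and neither changed sign in any.

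**Figure D5:**
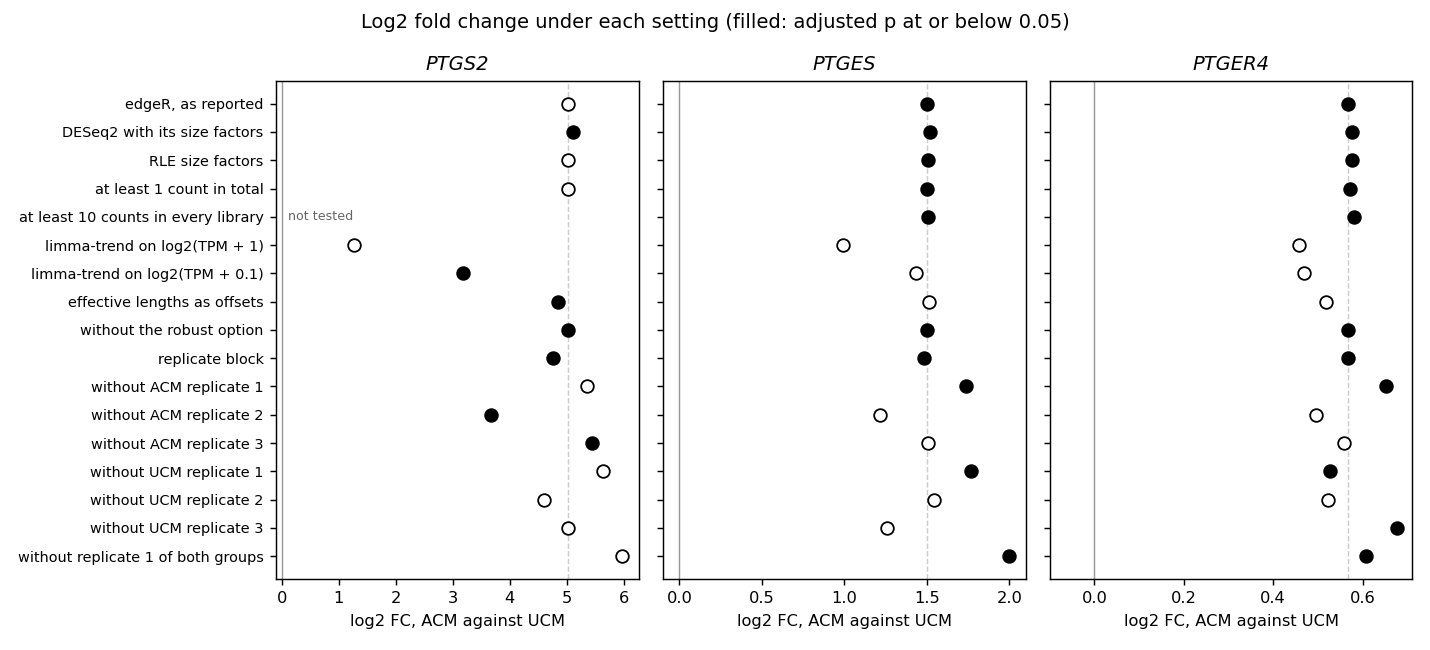
Log2 FC of PTGS2, PTGES and PTGER4 as reported (dashed line) and under each alternative, on linear axes; filled points have an adjusted p at or below 0.05. All points lie to the right of 0, and the call of each gene is lost or gained under several alternatives while its direction is not.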

How the data were processed

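PolyA-enriched RNA of 6 BT-549 cultures was read in pairs. As the study's methods and the labels state, the authors used Trim Galore for trimming, STAR for alignment to GRCh38 and RSEM for quantification (versions, annotation and strand setting are not given in the sources used here). The authors deposited for each library and gene an expected count, which is unscaled and shares ambiguous reads between genes, a TPM value scaled by effective length and to the library's sum, and the effective length itself. A further table by the authors holds their own DESeq2 comparison and was not used.

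Rounded expected counts entered edgeR 4.0.16 under R 4.3.3 (TMM, filterByExpr, robust quasi-likelihood fit, Benjamini-Hochberg adjustment over all 14451 tested genes), and CPM used the TMM-scaled library sizes. Symbols and positions came from GENCODE 44, which matched 61547 of 63140 identifiers. Alternatives were DESeq2 1.42.0, RLE size factors, 2 filters (at least 1 count in total, at least 10 in every library), limma-trend 3.58.1 on log2(TPM + 1) and log2(TPM + 0.1), effective lengths as offsets, a fit without the robust option, the replicate block and each library left out. The comparison without replicate 1 of both groups was chosen after seeing the data. The scripts recovered known changes in simulated data with the same spread for every gene and no deviant library. That simulation cannot decide calls that turn on ACM replicate 2 or on how the spread is modelled. Intervals of count ratios are exact conditional ones and cover counting error only.

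The members and lists were chosen with earlier results of these data known. The text names all 10 members, up to 5 genes of each list at an adjusted p at or below 0.05 or else the gene of lowest p, and the 8 genes closest to PTGS2. Further genes of the lists were named after their values were seen. TLR2, ZFP36 and ZADH2 were not analysed here.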

Additional observations from a re-analysis of the deposited data

How the results depend on the processing

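The directions of PTGS2, PTGES, PTGES2, PTGES3, PTGER2 and PTGER4 held under every alternative in which each was tested; PTGS2 and PTGER2 were not tested with at least 10 counts in every library. PTGS2 passed the adjusted threshold with DESeq2 (log2 FC 5.10), limma-trend on log2(TPM + 0.1) (3.18), effective lengths as offsets (4.84), no robust option (5.01, adjusted p = 0.0171) and the replicate block (4.77, adjusted p = 0.0139), and its log2 FC ranged from 3.67 to 5.63 with 1 library left out and was 5.97 without replicate 1 of both groups. Over its alternatives the adjusted p ranged from 0.00017 to 0.225. The number of members that rose, 2 as reported, was 0 with limma-trend on log2(TPM + 1), 1 (PTGS2) with limma-trend on log2(TPM + 0.1) and with length offsets, 3 (PTGS2, PTGES and PTGER4) with DESeq2, without the robust option and with the replicate block, and 0 to 2 with libraries left out. Pathway list genes that rose (8) numbered 0 to 8 with libraries left out and 10 with DESeq2, and those that fell (1) numbered 0 with either limma-trend fit and 0 to 2 with 1 library left out (3 without replicate 1 of both groups). With the replicate block, PTGES3 also passed, so that 1 member and 2 list genes fell. IL6 and AKR1B1 lost their calls by edgeR with the replicate block (adjusted p = 0.111 and 0.0750). Both also lost them with at least 1 count in total (0.0841 and 0.109). DUSP1 and SIK1 lost their calls with either limma-trend fit. Same-numbered libraries deviated together with r = 0.318, 0.0347 and 0.177 for replicates 1, 2 and 3. Differently numbered libraries gave r from -0.314 to 0.196, the highest for ACM replicate 3 with UCM replicate 2. Whether the numbers pair the samples was not tested. With 1 library left out, PTGIS ranged from -0.067 (without UCM replicate 1) to 0.22 and TBXAS1 from -0.59 to 0.11 (without ACM replicate 3), and PTGIS was -0.036 without replicate 1 of both groups. The difference in the PTGS2 share of cyclooxygenase TPM (3.11 percentage points) ranged from -6.42 to 8.95 with libraries left out. Of all tested genes, 484 rose and 320 fell as reported. Over the alternatives the number that rose ranged from 125 to 1045 and the number that fell from 62 to 726, with these ends reached in different settings. With the replicate block, 909 rose and 703 fell. The causes were not tested. Depth limits PTGS1, HPGD and the UCM level of PTGS2, each with at most 8 counts a library.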
